A study of Mus musculus with 6 samples.

Results

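The genes described here are 10 synaptic vesicle and SNARE genes (Sv2a, Syp, Syngr1, Syn1, Syt1, Syt11, Snap25, Stx1a, Vamp1 and Vamp2) in mouse embryonic fibroblasts (MEFs), out of 29955 genes in the deposited RNA-seq table. They were chosen by the normalized counts of the same comparison of genotypes, as neuronal vesicle genes around Sv2a, which was known to be strongly lower in Rnf40-/- MEFs. Their differences between genotypes are therefore given as a description, with a standard error and without a p value. All 10 symbols were found in the table. The study asked how gene expression depends on RNF40, the E3 ubiquitin ligase subunit needed for monoubiquitination of histone H2B. RNA was sequenced from 3 libraries labelled Rnf40+/+ and 3 labelled Rnf40-/-, all from primary MEFs at passage 3. In the mouse line, exons 3 and 4 of Rnf40 are flanked by loxP sites and a tamoxifen-inducible Cre (CreERT2) is expressed from the ubiquitous Rosa26 locus. The Rnf40-/- cells had received 250 nM 4-hydroxytamoxifen (4-OHT) for 5 days followed by 3 days without it. The study's methods derive its MEFs from homozygous floxed embryos with CreERT2 and name no other source for the Rnf40+/+ cells. They do not say that the Rnf40+/+ cells received 4-OHT, so the deletion and the treatment cannot be told apart. They also do not state whether the replicates came from separate embryos, and the spread between them may be technical.

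Neurotransmitter release depends on the docking and fusion of synaptic vesicles with the plasma membrane. SNARE proteins on the vesicle (VAMPs, or synaptobrevins) and on the target membrane (syntaxins and SNAP25 relatives) zip into a helical bundle that drives fusion, and synaptotagmins are the calcium sensors. Fibroblasts have no synapses, but they use related SNAREs for constitutive secretion, and several neuronal vesicle genes are kept low outside neurons by the repressor REST, which binds the RE1 element in their promoters. Neuronal synaptic vesicles also carry SV2 glycoproteins, synaptophysin, synaptogyrin and, on their cytoplasmic face, synapsins.

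The promoters of 8 members were matched by symbol in RefSeq (GRCm38.p6), from 250 bases before to 50 bases after the start site, and Syt1 had more than 1 entry, which gave 9 promoters. Snap25 and Vamp2 had no entry. The promoters of Sv2a, Syt1 and Stx1a are shown because these genes shared a high level in 1 library, and that of Syn1 because it is a textbook target of REST. For Syt1 the first entry is shown, and the other held none of the searched motifs. Capitals mark matches on either strand to GGGCGG (the GC box), CAGCACC (the left part of the RE1 consensus) and GGACAG (its right part), and TATAAA was searched as well.
Sv2a (chr3:96180977-96181276, plus strand): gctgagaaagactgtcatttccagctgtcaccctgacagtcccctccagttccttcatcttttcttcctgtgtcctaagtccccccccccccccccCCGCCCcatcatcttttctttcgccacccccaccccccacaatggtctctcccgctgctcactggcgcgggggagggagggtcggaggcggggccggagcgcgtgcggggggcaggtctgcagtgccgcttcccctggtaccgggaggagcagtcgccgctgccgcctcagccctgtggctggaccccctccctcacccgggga
Syt1 (chr10:109010926-109011225, minus strand): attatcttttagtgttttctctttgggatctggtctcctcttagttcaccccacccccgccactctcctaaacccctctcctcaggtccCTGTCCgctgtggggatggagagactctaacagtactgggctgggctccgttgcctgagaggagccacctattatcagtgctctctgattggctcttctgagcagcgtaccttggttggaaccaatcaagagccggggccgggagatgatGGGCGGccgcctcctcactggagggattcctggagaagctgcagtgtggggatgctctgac
Stx1a (chr5:135023232-135023531, plus strand): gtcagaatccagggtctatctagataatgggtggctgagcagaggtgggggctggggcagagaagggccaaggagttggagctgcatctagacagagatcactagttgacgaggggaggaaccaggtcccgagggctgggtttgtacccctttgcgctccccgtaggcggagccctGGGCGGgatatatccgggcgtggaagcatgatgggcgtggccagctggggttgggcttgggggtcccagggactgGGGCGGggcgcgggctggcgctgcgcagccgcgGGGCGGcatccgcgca
Syn1 (chrX:20920869-20921168, minus strand): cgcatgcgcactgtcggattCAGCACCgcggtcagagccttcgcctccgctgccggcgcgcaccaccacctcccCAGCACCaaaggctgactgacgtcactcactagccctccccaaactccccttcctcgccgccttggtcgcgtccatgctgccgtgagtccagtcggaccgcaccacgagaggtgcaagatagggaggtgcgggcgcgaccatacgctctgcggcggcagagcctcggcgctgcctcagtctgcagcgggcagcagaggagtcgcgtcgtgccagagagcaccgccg
The GC box was present in 7 of the 9 promoters, including those of Sv2a and Stx1a and the first of Syt1, against 35.7% of 32851 promoters of the same length. Syn1 had no GC box but was the only member with CAGCACC, a motif found in 7.14% of all promoters. GGACAG was present in 3 of the 9 (Syt1, Syt11 and Syngr1), against 22.2% of all, and TATAAA in none, against 13.6%. Only exact matches were counted, and Syn1 has ggtcag, a near match to GGACAG, shortly after its first CAGCACC. The searched letters did not overlap in these promoters. The GC content of the 9 promoters ran from 44% (second of Syt1) to 72.3% (Syngr1), most above the median of 52.7% over all promoters. The shares over all promoters were not matched for GC content. These matches describe the letters in this window and not binding.

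The libraries held between 17053436 and 26344170 reads on genes, and 3 reads, the floor used for detection here, corresponded to 2.40 to 3.58 normalized counts. Normalized counts are reads scaled by a size factor for each library. Rnf40 itself was between 1096 and 1278 in the Rnf40+/+ libraries and between 439 and 519 in the Rnf40-/- libraries. All fibroblast markers were expressed, with summed levels of 12 genes from 690770 to 758589 in Rnf40+/+ and from 414721 to 418016 in Rnf40-/- MEFs. Rnf40+/+ replicate 1 stood apart from its group for several of the genes described here. It was more than 2-fold above both other Rnf40+/+ libraries (over 1 on the log2 scale) for 224 of 16378 genes tested (1.37%). The same count was 56 (0.342%) for Rnf40+/+ replicate 2 and 163 (0.995%) for replicate 3. It was 48 (0.293%), 42 (0.256%) and 26 (0.159%) for Rnf40-/- replicates 1, 2 and 3. By the mean chi-square of reads per gene between 2 libraries, replicate 3 was the furthest of the Rnf40+/+ libraries. It had 28.8 and 25.9 against replicates 1 and 2, and these had 8.35 between them. Replicate 3 was also the library with the most reads. Values that Rnf40+/+ replicate 1 moved are also given without it.

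Among proteins of the vesicle membrane, Sv2a (ENSMUSG00000038486, chromosome 3 of mm9, 95985074 to 95999444, plus strand) encodes a vesicle glycoprotein that is also the target of the antiepileptic drug levetiracetam. Its normalized counts were 185, 51.0 and 46.3 in Rnf40+/+ MEFs, against 3.06, 4.17 and 3.78 in Rnf40-/- MEFs. The genotypes did not overlap, the Rnf40-/- libraries lay near the floor of 3 reads, and Rnf40+/+ replicate 1 was well above the other two. The means were 94.1 ± 78.8 and 3.67 ± 0.565 (SD, n = 3 each), and the log2 difference of Rnf40-/- minus Rnf40+/+ was -4.05 (standard error 0.49). By reads, 263 fell on Sv2a in the Rnf40+/+ and 11 in the Rnf40-/- libraries, a ratio of 23.3 (95% exact interval of 12.8 to 47.3, counting error only). Without Rnf40+/+ replicate 1 the 108 remaining reads gave a ratio of 13.2 (7.08 to 27.2) and a log2 difference of -3.42 (standard error 0.46). As RNA of whole cultures was sequenced, fewer cells with Sv2a RNA and less Sv2a RNA per cell cannot be told apart.

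Syp (ENSMUSG00000031144, chromosome X) encodes synaptophysin, the most widely used marker of synaptic vesicles. Its normalized counts were 13.1, 12.2 and 12.8 in Rnf40+/+ and 12.2, 19.8 and 7.55 in Rnf40-/- libraries. The Rnf40+/+ values lay inside the range of the Rnf40-/- values, and the log2 difference was -0.04 (standard error 0.42). Syp shares 875 exon bases with Gm14703, a non-coding RNA gene on the opposite strand. With 39 reads in each genotype, the ratio of Rnf40-/- to Rnf40+/+ was 1.02 (0.640 to 1.64, counting error only), an interval too wide at this depth to tell a moderate change from none. Syngr1 (ENSMUSG00000022415, chromosome 15), a relative of synaptophysin, had 86.0, 80.6 and 151 in Rnf40+/+ and 149, 127 and 115 in Rnf40-/- libraries. The groups overlapped through Rnf40+/+ replicate 3, and the log2 difference of 0.35 (standard error 0.23) became 0.63 (standard error 0.18) without that library. Syn1 (ENSMUSG00000037217, chromosome X) encodes synapsin I, which tethers vesicles to the cytoskeleton. Its values of 124, 135 and 79.1 in Rnf40+/+ and 117, 59.5 and 121 in Rnf40-/- libraries overlapped, with a log2 difference of -0.21 (standard error 0.28). Timp1, at 9226 ± 410 in Rnf40+/+ and 4108 ± 311 in Rnf40-/- MEFs (SD, n = 3 each), lies on the opposite strand within Syn1 but shares no exon base with it in mm9.

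Syt1 (ENSMUSG00000035864, chromosome 10 of mm9, 107934706 to 108448038, minus strand) is the calcium sensor for fast transmitter release. Its normalized counts were 115, 2.04 and 0.799 in Rnf40+/+ and 7.14, 6.26 and 15.1 in Rnf40-/- libraries. Of the 99 reads in Rnf40+/+ MEFs, 96 came from replicate 1, and the other two libraries were at or under 3 reads. The direction of the difference therefore turned with this library. With it the ratio of Rnf40-/- to Rnf40+/+ by reads was 0.300 (0.191 to 0.458, counting error only), and without it the ratio was 7.20 (2.23 to 36.9, from 29 against 3 reads). Syt1 did not pass the filter on low values and was not tested. On the log2 scale its unfiltered difference over all 6 libraries was 0.20 (standard error 1.19), opposite in sign to the ratio by reads. Syt11 (ENSMUSG00000068923, chromosome 3 of mm9, 88548622 to 88636219, minus strand) encodes a synaptotagmin that does not bind calcium and is expressed outside neurons too. It had 620, 563 and 420 normalized counts in Rnf40+/+ and 400, 411 and 400 in Rnf40-/- libraries. The groups did not overlap, but Rnf40+/+ replicate 3 was only just above the highest Rnf40-/- library, and the log2 difference was small at -0.38 (standard error 0.13). It was -0.27 (standard error 0.12) without Rnf40+/+ replicate 1 and -0.55 (standard error 0.10) without replicate 3.

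Of the SNAREs, Snap25 (ENSMUSG00000027273, chromosome 2), the neuronal target-membrane SNARE, followed the pattern of Syt1. Its normalized counts were 39.4, 2.04 and 3.99 in Rnf40+/+ and 9.18, 8.35 and 4.72 in Rnf40-/- libraries, and it did not pass the filter. Replicate 1 held 33 of the 40 Rnf40+/+ reads, and without it the ratio of Rnf40-/- to Rnf40+/+ changed from 0.563 (0.319 to 0.971) to 2.34 (0.966 to 6.49, counting error only). Stx1a (ENSMUSG00000007207, chromosome 5), the syntaxin that pairs with SNAP25 at the synapse, had 635, 285 and 325 in Rnf40+/+ and 325, 295 and 256 in Rnf40-/- libraries. Only Rnf40+/+ replicate 1 lay outside the range of the rest. The log2 difference of -0.42 (standard error 0.23) became -0.06 (standard error 0.13) without this library. Vamp1 (ENSMUSG00000030337, chromosome 6) and Vamp2 (ENSMUSG00000020894, chromosome 11) encode the synaptobrevins. Vamp1 had 100.3, 75.5 and 101 in Rnf40+/+ and 88.7, 137 and 127 in Rnf40-/- libraries, which overlapped, with a log2 difference of 0.33 (standard error 0.20). Vamp2 had 1304, 1263 and 1231 in Rnf40+/+ and 1221, 1329 and 1162 in Rnf40-/- libraries. These ranges covered each other, and its log2 difference of -0.04 (standard error 0.07) was the closest to 0 of the 8 members tested.

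**Figure D1:**
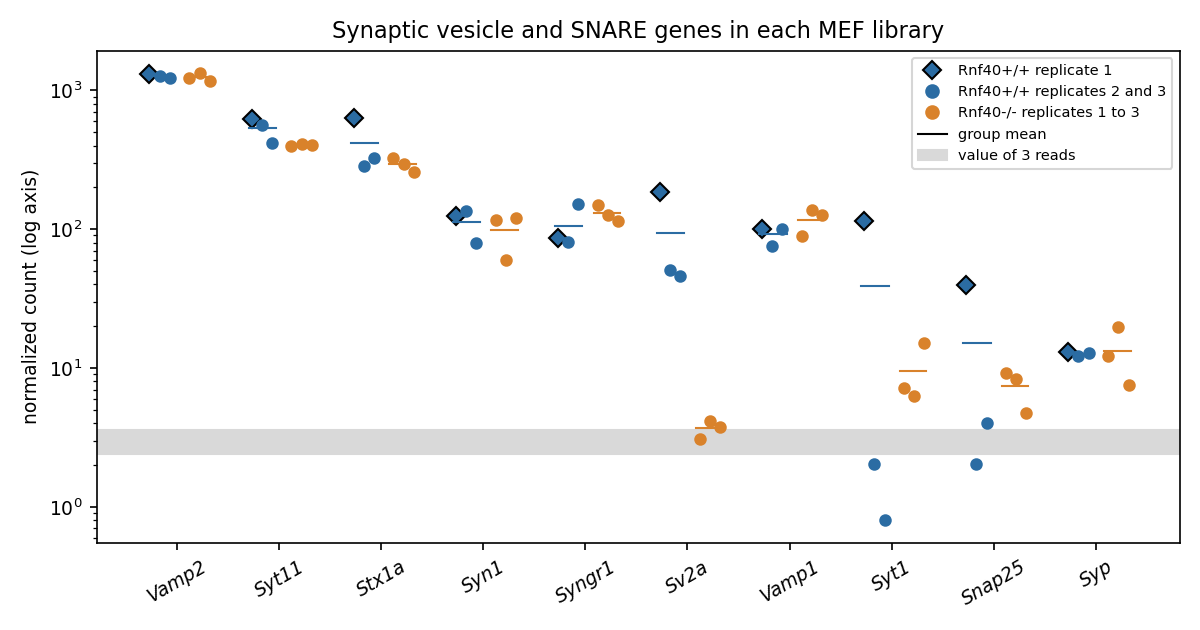
Normalized counts (log axis) of the 10 members in each library, ordered by their mean in Rnf40+/+ MEFs, with Rnf40+/+ replicate 1 as diamonds, group means as lines and the value of 3 reads (2.40 to 3.58) as a grey band. Sv2a is the only member with all Rnf40-/- libraries near the band and all Rnf40+/+ libraries above it, while Syt1 and Snap25 are high in Rnf40+/+ replicate 1 alone.

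Per kilobase of transcript (mean length of the mm9 transcripts), Vamp2 had the highest level of the set in Rnf40+/+ MEFs, at 1173 ± 33.8 normalized counts per kb, above Stx1a (270 ± 125) and Syt11 (180 ± 34.7, SD, n = 3 each). Stx1a and Syt11 did not differ beyond their spread. Syngr1 (69.9 ± 25.9), Sv2a (37.1 ± 31.1), Vamp1 (35.9 ± 5.63) and Syn1 (35.2 ± 9.23) followed. Each of these overlapped its neighbour in the order, and their order changed when the longest transcript was used, which put Sv2a at rank 6 in place of 5. Without Rnf40+/+ replicate 1 the level of Sv2a was 19.2 per kb, below Vamp1 (34.3) and Syn1 (33.4), at rank 7. Syt1 (13.1 ± 21.8), Syp (8.53 ± 0.304) and Snap25 (5.67 ± 7.88) were lowest on this scale, and their order rests on replicate 1. In Rnf40-/- MEFs Vamp2 was still highest (1146 ± 78.2 per kb), and Sv2a was the lowest of the 10 (1.45 ± 0.223 per kb).

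Across all genes, limma with Benjamini-Hochberg adjustment called 47.4% of 16378 genes at an adjusted p under 0.05 (24.1% lower and 23.3% higher in Rnf40-/- MEFs). Of the 10 members, 8 passed the filter on low values and were tested. Sv2a passed only through its Rnf40+/+ libraries, since no Rnf40-/- library reached the minimum. In this fit 2 of the 8, Sv2a and Syt11, were called lower, and none was called higher, also at an unadjusted p under 0.05 and by edgeR and DESeq2. As the set was chosen on this comparison and around Sv2a, these calls describe the members and support nothing. Without Rnf40+/+ replicate 1, Sv2a was the only member called, while 44.8% of genes were still called. Leaving out Rnf40+/+ replicate 2 or any 1 Rnf40-/- library likewise removed the call of Syt11, and leaving out Rnf40+/+ replicate 3 added Syngr1 as higher. With the thresholds of the study (mean above 15, p under 0.05, absolute log2 difference above 1), Sv2a was the member counted, which its choice had fixed. These thresholds were applied to the limma values, where the study names DESeq. By them 5.7% of all genes were lower and 4.25% higher. The genotypes did not overlap for 2 of the 8 members tested, Sv2a and Syt11, against 56.5% of all genes tested. They overlapped for Syt1 and Snap25, which were not tested. The median log2 difference of the 8 members was -0.13, against -0.0035 for all genes tested. This median changed with single libraries and was -0.04 without Rnf40+/+ replicate 1. Without Rnf40+/+ replicate 3 it was -0.45, but over 9 members, since Syt1 (-0.93) then passed the filter. That median is therefore not of the same members.

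**Figure D2:**
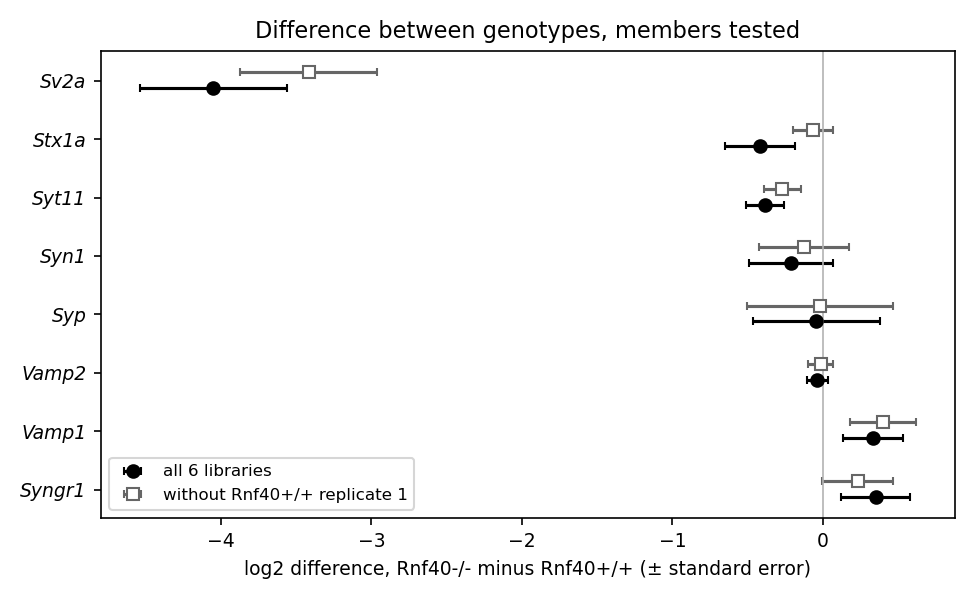
Log2 difference of Rnf40-/- minus Rnf40+/+ (bars, standard error of limma) for the 8 members tested, from all 6 libraries (black circles) and without Rnf40+/+ replicate 1 (open squares). Sv2a lies at -4.05 and -3.42, and the other members between -0.42 and 0.40 in either fit.

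The high values of Rnf40+/+ replicate 1 were compared with markers of other cell types. On the log2 scale, Sv2a was 1.91 and Stx1a 1.06 above the mean of replicates 2 and 3, which put them at ranks 88 and 353 of 16378 genes tested. Vamp2 (0.06) and Syp (0.07) were close to 0. Of 15 neuron markers, Tubb3, a neuronal tubulin, was 2670 in this library against 1275 and 1353 in the others. The neuron markers summed to between 5031 and 6524 in Rnf40+/+ MEFs, highest in this library, and to between 5017 and 5259 in Rnf40-/- MEFs. The higher sum in replicate 1 came mainly from Tubb3. Of the defining neuron markers, Rbfox3 had no read in this library and Neurod1 was at 5.97, near the floor but the highest of the series. Eno2 (955) and Ina (11.9) were also highest of the series in replicate 1, while Mtap2 (176), Nefh, Nefl and Elavl3 (each 2.39) were lowest there. Gap43 was 283 in replicate 1, against 367 and 446 in replicates 2 and 3. Of the 9 skeletal muscle markers, Actc1, Des and Acta1 were more than 2-fold above both other Rnf40+/+ libraries in replicate 1, and the other 6 were not. Actc1, the cardiac actin of embryonic muscle, was 937 in replicate 1, 10.2 and 7.99 in replicates 2 and 3, and between 1.02 and 4.72 in Rnf40-/- MEFs. Des (desmin) was 431, 126 and 114 in Rnf40+/+ replicates 1, 2 and 3, and Acta1 (skeletal actin) was 4449, 1905 and 1592. Mylpf was 15.5 in replicate 1, against 13.3 and 24.8 in replicates 2 and 3. The whole muscle list summed to between 1749 and 5843 in Rnf40+/+ and to between 451 and 519 in Rnf40-/- MEFs, but Myod1 had no read in any library and Ckm was at most 2.04. Their part in the values of Sv2a, Syt1, Snap25 and Stx1a was not tested. Other marker lists showed no such peak in replicate 1. Macrophage markers summed highest in Rnf40+/+ replicate 3, at 9732 against 5415 and 6046 in replicates 1 and 2. Glia markers summed to between 177 and 190 in Rnf40+/+ and between 235 and 268 in Rnf40-/- libraries, neuroendocrine markers to between 111 and 124 and between 172 and 177, and macrophage markers to between 5415 and 9732 and between 3574 and 3960. These sums do not show a shift of whole lists. Lyz2 (means of 5314 and 2264) made up most of the macrophage sum. Of 9 macrophage markers tested by limma, 3 were lower and 2 higher (55.6%, against 47.4% of all genes). Of 4 neuroendocrine markers tested, 1 was lower and 2 were higher (75%), and of 5 glia markers 0 and 1 (20%).

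**Figure D3:**
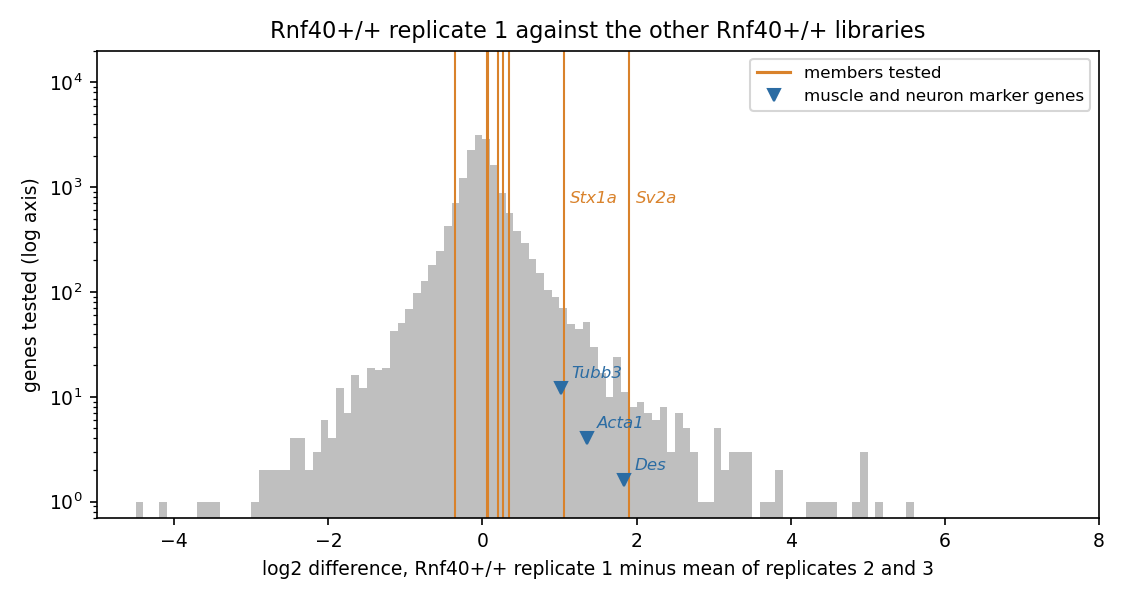
Histogram of the log2 difference of Rnf40+/+ replicate 1 minus the mean of Rnf40+/+ replicates 2 and 3 over 16378 genes tested (log count axis), with the 8 members tested as orange lines and Acta1, Des and Tubb3 as blue triangles. Sv2a (1.91) and Stx1a (1.06) lie in the right tail, and the other members near the bulk. The markers drawn were all high in replicate 1. Markers not drawn went both ways, with Eno2 above and Mtap2, Gap43 and Mylpf below the mean of replicates 2 and 3.

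The other genes of vesicle release moved in both directions. Of 132 further vesicle and SNARE genes in the table, 110 were tested, of which 25 were lower and 35 higher in Rnf40-/- MEFs by limma at the same threshold. Together these were 54.5% of those tested, against 47.4% of all genes, and the median log2 difference was 0.08. Without Rnf40+/+ replicate 1, 24 of the 25 and all 35 were called again. TMM scaling gave 25 and 35, and upper-quartile scaling 26 and 34.

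Among the paralogs of the members, 5 of 18 tested were lower and 7 were higher (3 lower without Rnf40+/+ replicate 2 or without Rnf40-/- replicate 2). Together 66.7% were called, against 47.4% of all genes. Sv2b, the paralog of Sv2a, had 13.1, 3.06 and 3.19 normalized counts in Rnf40+/+ and 39.8, 31.3 and 23.6 in Rnf40-/- libraries. It rose while Sv2a was lower, with a log2 difference of 2.36 (standard error 0.51, adjusted p = 0.00244 by limma), and its rise was 2.95 without Rnf40+/+ replicate 1. Rnf40+/+ replicates 2 and 3 lay near the floor of 3 reads, so the size of this rise is poorly known. Sv2c had 12.2 ± 8.23 and 9.98 ± 6.11 normalized counts (SD, n = 3 each) and did not pass (adjusted p = 0.706 by limma). Syn2, a synapsin paralog, rose from between 7.17 and 11.2 in Rnf40+/+ to between 23.6 and 47.0 in Rnf40-/- libraries (log2 difference 1.69, standard error 0.37, adjusted p = 0.00259 by limma). Sv2b and Syn2 passed the filter on low values through their Rnf40-/- libraries, where they were high. Their adjusted p values are therefore a description and no support. Syn3 had 15545 ± 924 and 13391 ± 523 normalized counts, but it shares 1733 exon bases with Timp3, an abundant gene on the opposite strand (18499 ± 1734 and 17160 ± 176). The library kit was directional, but as it is not stated that the counting used strand, reads of Syn3 and Timp3 cannot be told apart. The ubiquitous relatives of synaptogyrin and synaptophysin rose together, Syngr2 by 0.76 (standard error 0.07, adjusted p = 5.93e-06) and Sypl by 0.51 (standard error 0.07, adjusted p = 7.73e-05, both by limma) on the log2 scale. Of the SNARE paralogs used by non-neuronal cells, Stx2 fell most, from 1127 ± 46.0 to 668 ± 46.6 (log2 difference -0.76, standard error 0.08, adjusted p = 1.11e-05 by limma). Snap23, the general counterpart of Snap25, fell by 0.27 on the log2 scale, and Vamp8 fell by 0.45. Snap29, Vamp3 (cellubrevin) and Vamp7 rose by 0.38, 0.21 and 0.41.

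Synaptotagmins other than the members were 3 higher, 0 lower and 7 not passed of 10 tested by limma (30% called, against 47.4% of all genes). The numbers higher and lower were the same by edgeR and DESeq2. At an unadjusted p under 0.05, 1 was lower by limma and edgeR and 0 by DESeq2. Syt8 had 8.36, 7.14 and 3.19 normalized counts in Rnf40+/+ and 37.7, 56.4 and 41.5 in Rnf40-/- libraries, a log2 difference of 2.74 (standard error 0.40, adjusted p = 0.000144 by limma). Its groups were far apart, but the Rnf40+/+ values were low (3 reads are 2.40 to 3.58 normalized counts). Syt8 passed the filter only through its Rnf40-/- libraries. Syt4 rose from 15.1 ± 1.99 to 37.0 ± 8.31 and Syt17 from 136 ± 19.8 to 277 ± 13.3 (SD, n = 3 each), although Syt4 shares 575 exon bases with Gm16871 on the opposite strand. Syt13, the most abundant by reads, had 740 ± 156 and 678 ± 55.7 and did not pass. Of 4 vesicular transmitter transporters tested, 2 were higher and 0 lower (50%, against 47.4% of all genes). These numbers were the same at an unadjusted p under 0.05 and by edgeR and DESeq2 (1 higher without Rnf40-/- replicate 1). Slc17a6, the vesicular glutamate transporter VGLUT2, rose from 15.4 ± 6.09 to 56.3 ± 12.8 (log2 difference 1.87, standard error 0.35, adjusted p = 0.000894 by limma). Slc17a7 (VGLUT1) had 114 ± 57.0 and 137 ± 44.2 and did not pass.

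Among the proteins that prepare SNAREs for fusion, 4 were lower and 6 higher of 21 tested (47.6%, against 47.4% of all genes). Cplx2, a complexin that clamps the SNARE bundle before calcium entry, had 613, 619 and 569 normalized counts in Rnf40+/+ and 252, 215 and 226 in Rnf40-/- libraries. The groups were separate, and the log2 difference was -1.38 (standard error 0.10, adjusted p = 6.09e-07 by limma). Unc13a (Munc13-1), the priming factor of synaptic vesicles, fell from 78.3 ± 8.36 to 23.7 ± 1.22 (log2 difference -1.68, standard error 0.22, adjusted p = 7.24e-05 by limma). Unc13d (Munc13-4), which primes secretory granules of blood cells, rose from 61.3 ± 9.77 to 168 ± 4.05 (log2 difference 1.46, standard error 0.17, adjusted p = 2.66e-05 by limma). These 3 differences were between 1.32 and 1.69 in size without Rnf40+/+ replicate 1. Nsf, the ATPase that takes SNAREs apart, was picked after its values were seen, and rose from 1257 ± 117 to 1900 ± 30.6 (adjusted p = 5.25e-05 by limma). Without Rnf40+/+ replicate 1 the list had 5 lower and 9 higher. Napa, the most abundant of the list by reads, had 5457 ± 209 and 5018 ± 333 and did not pass.

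Rab3 GTPases and other vesicle proteins had 6 lower and 4 higher genes of 14 tested (71.4%, against 47.4% of all genes). None of them differed by more than 1 on the log2 scale. The 6 were not stable, with 3 lower by DESeq2, and between 1 and 3 when Rnf40+/+ replicate 2, Rnf40+/+ replicate 3 or any 1 Rnf40-/- library was left out. Dnajc5 (cysteine string protein), the most abundant by reads, rose from 1733 ± 147 to 2288 ± 52.3 (adjusted p = 0.000683 by limma). SNAREs of the Golgi, endosomes and endoplasmic reticulum had 6 lower and 4 higher of 20 tested (50%, against 47.4% of all genes), with a median log2 difference of -0.14. Ykt6 rose from 3570 ± 213 to 4538 ± 169 (adjusted p = 0.00104 by limma). Genes of vesicle endocytosis had 4 lower and 9 higher of 23 tested (56.5%, against 47.4% of all genes). Dnm3, a dynamin, rose from 141, 165 and 208 in Rnf40+/+ to 335, 383 and 391 in Rnf40-/- libraries (log2 difference 1.12, standard error 0.14, adjusted p = 5.96e-05 by limma). Dnm3os, on its opposite strand with no shared exon base, had 5258 ± 248 and 1270 ± 169, and Gm10176, also opposite, shares 355 exon bases with Dnm3. Cltc, the clathrin heavy chain, rose from 15347 ± 1236 to 18543 ± 397 (adjusted p = 0.00889 by limma). Sh3gl2 (endophilin A1), not tested, was the gene of this list that shared the peak in Rnf40+/+ replicate 1, with 33.4 there, 7.14 and 4.79 in the other two, and between 4.08 and 8.35 in Rnf40-/- MEFs.

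**Figure D4:**
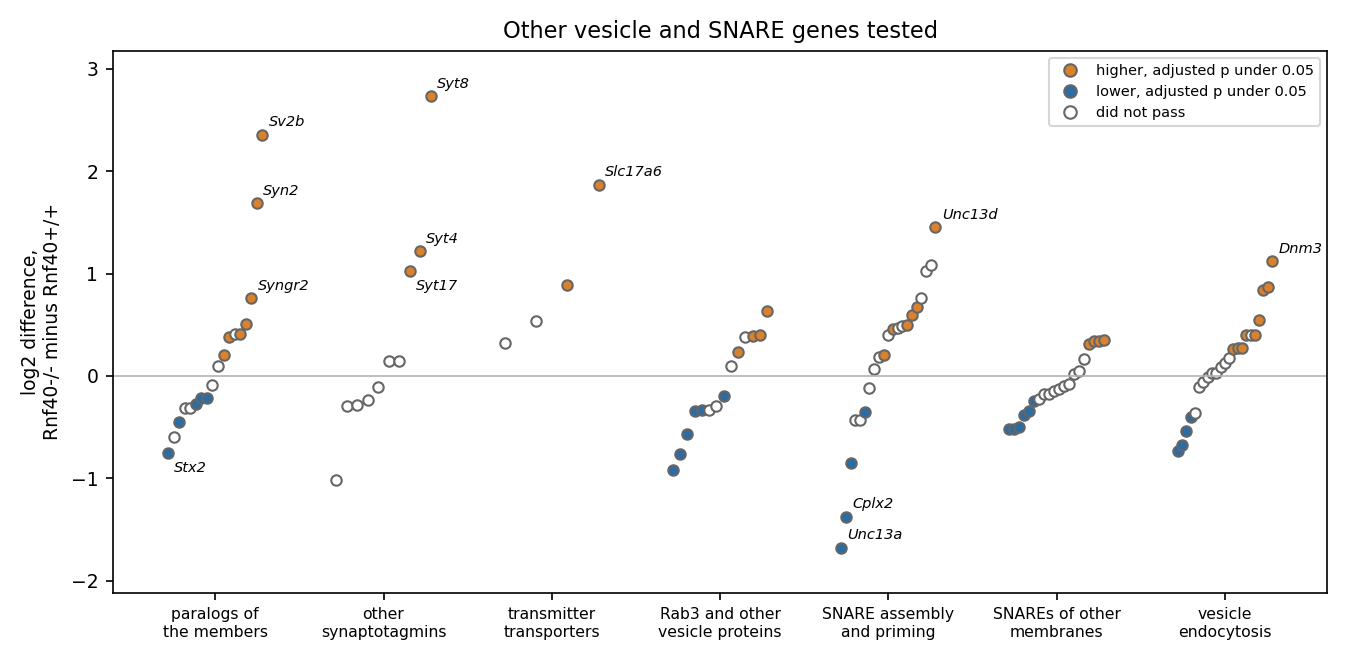
Log2 difference of Rnf40-/- minus Rnf40+/+ for the 110 other vesicle and SNARE genes tested, in 7 groups by function, orange where higher and blue where lower with an adjusted p under 0.05 (limma) and open where not passed. Syt8 (2.74) and Sv2b (2.36) are at the top, Unc13a (-1.68) and Cplx2 (-1.38) at the bottom.

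Expression of the REST repressor was 322, 432 and 405 normalized counts in Rnf40+/+ and 398, 385 and 337 in Rnf40-/- libraries, with overlapping groups (log2 difference -0.04, standard error 0.12, adjusted p = 0.798 by limma). Of the 9 genes of REST and its corepressors, 4 were lower and 1 higher (55.6%, against 47.4% of all genes). Rcor2, a CoREST protein, fell from 167 ± 10.1 to 83.4 ± 13.6 (adjusted p = 0.000338 by limma). The other CoREST genes went both ways. Rcor3 was also lower (170 ± 48.4 and 90.3 ± 12.1), and Rcor1 was higher (387 ± 46.6 and 518 ± 52.2). Hdac2, the most abundant by reads, did not pass (adjusted p = 0.93 by limma).

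The 5 genes whose log2 values over the 6 libraries were most like those of Sv2a, among genes with a mean above 15, were Slc20a1, Hmg1l1, Hnrnpa1, Mcm8 and Klc2. Their Pearson correlations with Sv2a were 0.998, 0.997, 0.996, 0.996 and 0.996, as a description over 6 libraries of 2 genotypes. None of them is a vesicle gene of the lists used here, and their differences were smaller than that of Sv2a. Slc20a1, a phosphate transporter, had 4099, 3391 and 3265 normalized counts in Rnf40+/+ and 2355, 2452 and 2455 in Rnf40-/- libraries. It shared with Sv2a both the lower Rnf40-/- level and the highest value in Rnf40+/+ replicate 1. Mcm8, a helicase of DNA repair, had 124, 85.7 and 83.8 in Rnf40+/+ and 40.8, 38.6 and 41.5 in Rnf40-/- libraries.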

How the data were processed

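RNA-seq values came from 1 deposited table. The authors mapped reads to the mouse transcriptome (mm9) and normalized with DESeq, and the submitters' processing notes name Bowtie2 (version 2.1.0) and DESeq (version 1.14.0). The counting tool is not given in the sources used here. The deposited signal is reads divided by 1 size factor per library. Dividing by the value of 1 read gave whole reads for 100% of values (tolerance 0.01 reads).

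Genes kept by filterByExpr of edgeR (version 4.0.16) were tested with limma (version 3.58.1, trend) on log2(normalized count + 1), which understates changes of low genes, on genotype alone, and p values were adjusted (Benjamini-Hochberg) over all 16378 genes. The edgeR quasi-likelihood test, DESeq2 (version 1.42.0), other scalings, pseudocounts and filters, a replicate block and each library left out were alternatives. With 3 libraries against 3, an exact permutation test cannot give a p below 0.1, so none was run. Intervals of read ratios are exact (Clopper-Pearson, 95%) and cover counting error only. The tests were tried on simulated data.

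The members and gene lists were chosen with earlier results of these data known. Named genes were all members, any tested paralog, in other lists genes with an adjusted p under 0.05, an absolute log2 difference above 1 and a mean above 15, the most abundant gene of each list, and the 5 nearest to Sv2a by correlation. Rest, Rcor1, Rcor3, Nsf, Sh3gl2, Rnf40 and genes that overlap a named gene were named outside this rule. Not every gene under this rule is described, and of the marker lists only summed levels, the numbers called in some lists and chosen genes are given. R (version 4.3.3) and Python (version 3.11.15) with scipy (version 1.17.1) were used. Positions are from GENCODE for mm9, and promoters from RefSeq for GRCm38.p6. ChIP-seq was not analysed here. A result on 1 listed gene is not reported here.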

Additional observations from a re-analysis of the deposited data

How the results depend on the processing

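The number of members called lower was 2 and fell to 1 when at least 10 reads were required in every library, which removed Sv2a from the test by construction. It was between 1 and 2 with 1 library left out, and the number called higher was between 0 and 1. The replicate block gave 3 lower members, with Stx1a added. It changed the numbers over all genes by less than 1.5 times. The replicate numbers are not shown to pair the libraries, since the deviations of same-numbered libraries correlated at 0.0118, 0.0174 and 0.0212, and Rnf40+/+ replicate 1 correlated best with Rnf40-/- replicate 2. The median log2 difference of the other vesicle and SNARE genes was 0.12 without a filter and 0.027 with at least 10 reads in every library. That of all genes was 0.033 and -0.014 under the same settings. The log2 difference of Sv2a was -2.68 with a pseudocount of 10, which shrinks changes of low genes by construction, and between -4.40 and -3.42 with 1 library left out. No called member changed direction under any alternative run. Sv2a in Rnf40-/- MEFs rests on 11 reads over 3 libraries, and Syt1 and Snap25 on 3 and 7 reads outside Rnf40+/+ replicate 1 in Rnf40+/+ MEFs. Their true levels at this depth are poorly known.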
